A study of Mus musculus with 6 samples.

Results

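The genes examined here encode the eukaryotic translation initiation factors. They were taken from the count table by name, as the protein-coding genes whose symbol begins with Eif followed by a digit, which gave 46 of 54838 genes. Genes of the eIF2 kinases (Eif2ak), of the eIF4E-binding proteins (Eif4ebp and Eif4enif) and the Y-linked Eif2s3y were left out by the same rule. Of the 46 genes, 43 had enough counts to be tested. The other 3 were Eif3j2 with 17 counts over all samples, Eif5a2 with 44 and Eif4e1b with 0.

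Initiation starts when eIF2, bound to GTP and the initiator methionyl-tRNA, joins the small ribosomal subunit together with eIF1, eIF1A, eIF3 and eIF5. The cap-binding protein eIF4E, the scaffold eIF4G and the helicase eIF4A bring the mRNA to this subunit, which scans to the start codon, where eIF5B helps the large subunit to join. The exchange factor eIF2B returns eIF2 to its GTP-bound form, a step that is blocked when stress kinases phosphorylate eIF2. Hematopoietic stem cells are known for a low and closely controlled rate of protein synthesis.

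The question was how the mRNAs of these factors differed between leukemia cells of mice given AG636, an inhibitor of the pyrimidine synthesis enzyme DHODH, and those of mice given vehicle. The 6 samples were AML cells of the I1DN model on a C57BL/6 background, 3 per group, and cells of both groups carried IDH1R132H, DNMT3AR882H and NrasG12D. The study made the model by introducing constructs for these alleles together into stem and progenitor cells of fetal liver, and thawed leukemic cells were passed into sub-lethally irradiated Ptprca recipients, which keep some blood cells of their own. AG636 was given b.i.d. by oral gavage at 100 mg/kg body weight. The labels do not give the time on treatment or the age of the mice, and the study's descriptions of the time on treatment differ. Cells were sorted by fluorescence from bone marrow and spleen, and which organ each sample came from is not stated. The sort was for cells with cKit and little or no CD11b, an immature fraction of the leukemia. Libraries captured the 3′ end of polyadenylated RNA, and the totals were 4634963 to 7906589 counts per sample. Levels are given as CPM, counts brought to a common library size with TMM factors, and 3 counts correspond to 0.392 to 0.637 CPM.

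Markers of the sorted population were present in both groups. Kit had 31.8 to 43.1 CPM with vehicle and 37.3 to 46.3 with AG636, and Myb, a transcription factor of immature blood cells, had 423 to 490 and 397 to 552. Cd34 had 88.3 to 161 and 144 to 208 CPM, and Ptprc, which encodes CD45 of all white blood cells, was higher, with 98.4 to 129 CPM with vehicle and 155 to 197 with AG636 (log2 fold change 0.65, adjusted p = 0.0142). The 4 granulocyte progenitor markers summed to 1890 to 4260 and 1240 to 4440 CPM, and 0 of 4 were called. All 10 mature neutrophil markers were detected, with a summed level of 1040 to 2380 CPM with vehicle and 2900 to 5900 with AG636, and 7 of the 10 were higher with AG636. The 6 monocyte and macrophage markers summed to 66.5 to 122 CPM and 161 to 288 CPM, with 3 of 6 higher. Among those 3 was Itgam, which encodes the CD11b used in the sort. Itgam had 12.1 to 27 CPM with vehicle and 31.3 to 60.1 with AG636 (log2 fold change 1.21, adjusted p = 0.0219). The 4 erythroid markers summed to 1200 to 3190 and 1580 to 2540 CPM, with Klf1 lower. The 3 B cell markers summed to 5.53 to 14.2 and 13.8 to 19.3 CPM and the 3 T cell markers to 0.178 to 1.96 and 0.85 to 3.02 CPM. Of these, Pax5, Cd3e and Cd3g had 3 to 6 counts each over all samples, and Cd79b alone was high enough to be tested. The part of these markers in the differences of the initiation factor genes was not tested, and in bulk samples fewer cells of a type and less RNA per cell cannot be told apart.

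Most genes of the initiation factors had lower mRNA levels with AG636. Of the 43 genes tested, 28 were lower and 0 were higher at an adjusted p under 0.05 in the quasi-likelihood test of edgeR, with p adjusted by the method of Benjamini and Hochberg over 11092 genes. SE stands for standard error, here of the log2 fold change. Among all genes tested, 11.0% were called lower and 10.3% higher. With library size alone as the scaling, 22 initiation factor genes were lower and 0 higher, beside 913 genes lower and 1483 higher overall in place of 1222 and 1146. No initiation factor gene was higher at an unadjusted p under 0.05 either, or in DESeq2 or limma-voom, and 34 were lower at that unadjusted p. In edgeR, 4112 of the 11092 genes passed that unadjusted p in either direction. The log2 fold change of AG636 over vehicle was below 0 for 40 of the 43 genes, against 47.7% of all genes, and of these 40 Eif2d and Eif4g3 were at 0.03 each when scaled by library size alone. Its median was -0.50, against 0.03 over all genes, and it ranged from -0.85 for Eif2s2 to 0.34 for Eif4e3. In 32 genes every AG636 sample lay below every vehicle sample, which was so for 20.6% of all genes, and in 0 genes was the order the opposite, against 20.5%. Differences were moderate: 12 of the 43 genes were called lower with a fall of 1.5-fold or more, against 7.75% of all genes tested. Of the 43, 6 were lower at an adjusted p under 0.01, against 2.93% of all genes tested. Those 12 are among the 28 called lower, and over all genes 860 of the 1222 called lower fell by that much.

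**Figure D1:**
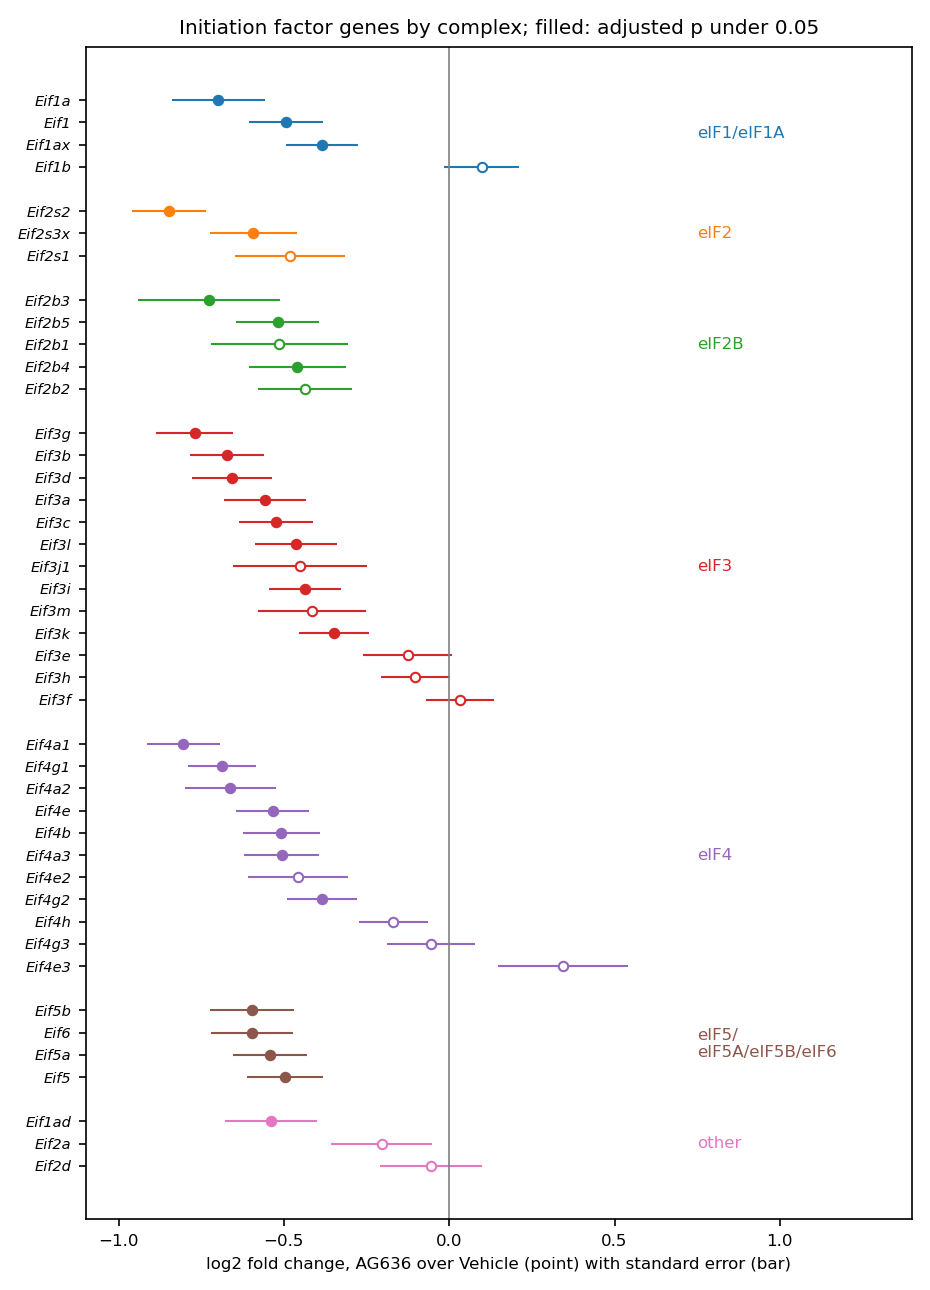
Log2 fold change of AG636 over vehicle for the 43 initiation factor genes tested, on the horizontal axis, with bars of 1 standard error, grouped and coloured by complex. Filled points passed an adjusted p of 0.05, and all 28 of them lie left of 0, between -0.85 and -0.35.

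The initiation factor genes together took 1.65%, 1.58% and 1.58% of all counts in the vehicle samples and 1.23%, 1.29% and 1.15% in the AG636 samples. Each AG636 sample therefore had a smaller share than each vehicle sample. In every sample the log2 CPM of each gene was set against the mean of that gene in the vehicle samples. The median of these deviations over the 43 genes was 0.06, -0.04 and -0.05 in the vehicle samples and -0.42, -0.38 and -0.61 in the AG636 samples. AG636 3 stood lowest: it had the smallest value of the AG636 samples in 34 of the 43 genes. AG636 1 lay below every vehicle sample in 35 genes, AG636 2 in 33 and AG636 3 in 39. These per-sample counts, and that of the smallest values, were not made over all genes tested. They have no share to be read against and only describe the samples. With AG636 3 left out, 9 of 43 genes were called lower, beside 4.03% of all genes, and the median log2 fold change was -0.41. The mature neutrophil markers summed to 5900, 3150 and 2900 CPM in AG636 1, 2 and 3, and their relation to these medians was not tested.

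**Figure D2:**
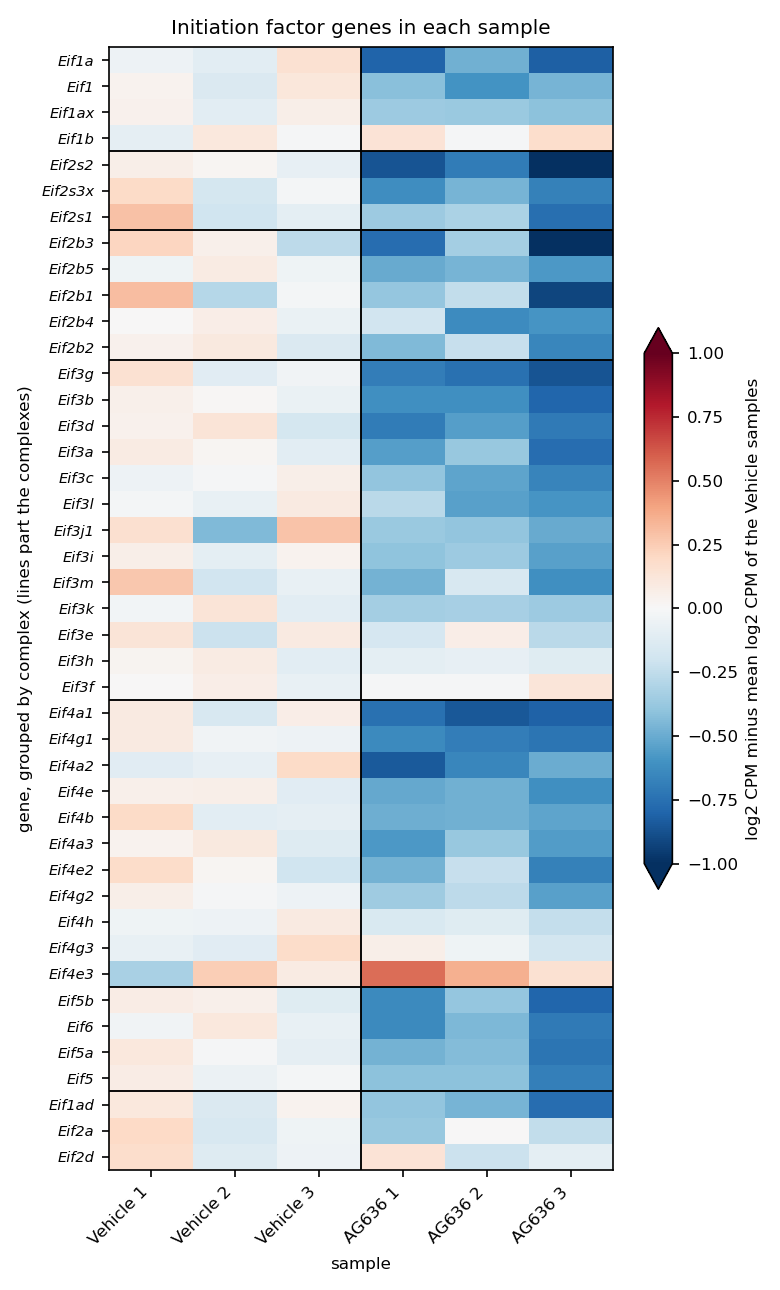
Each row is 1 of the 43 genes tested and each column a sample, with colour for log2 CPM minus the mean of the vehicle samples, from -1 in blue to 1 in red (values beyond are drawn in the end colours). The AG636 columns are blue for most rows, and Eif1b, Eif3f, Eif3h, Eif3e, Eif4g3, Eif4e3, Eif2a and Eif2d are among those close to white or red in at least 1 AG636 sample.

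**Figure D3:**
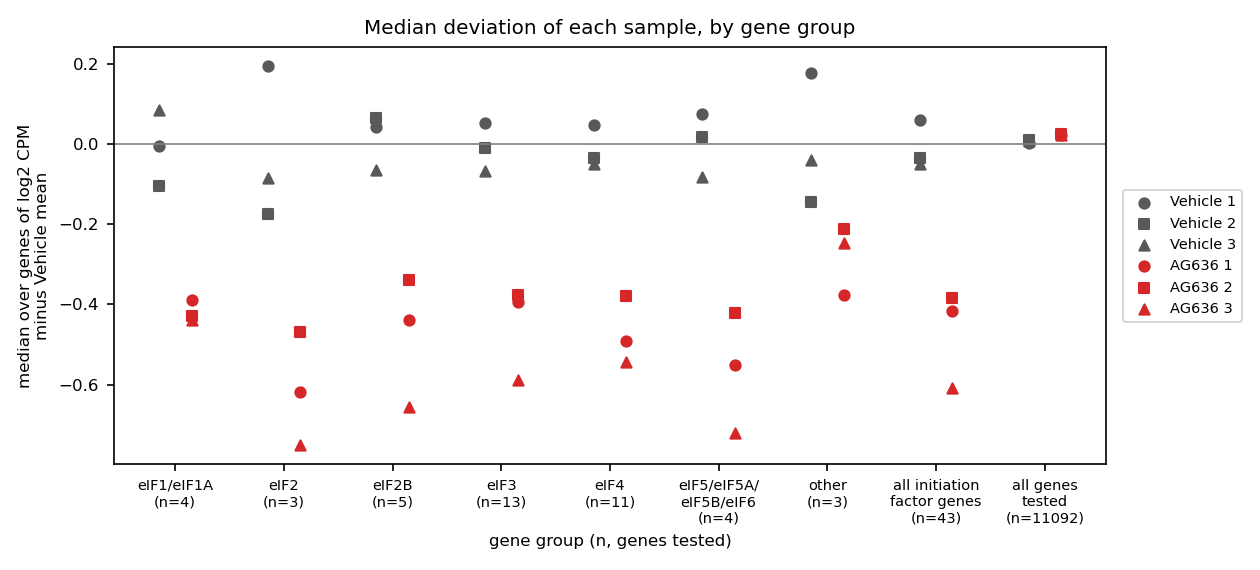
Median of those deviations over the genes of each complex for each sample, in log2 units, with the vehicle samples in grey, the AG636 samples in red and the replicates as circles, squares and triangles. The AG636 medians lie below all vehicle medians in each group of initiation factor genes, and over all 11092 genes every sample lies between 0.00 and 0.02.

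Sequence around the transcription start was looked at because the genes moved largely in 1 direction. Promoters from RefSeq (GRCm38.p6, 250 bases before to 50 after a start) matched 36 of the 46 genes, with 45 promoters. On both strands, 3 motifs were searched: AANATGGC, which is like the site of YY1, CACGTG, the E-box bound by MYC among others, and CCGGAAG, like the site of ETS factors. The search covered the whole window, with the 50 bases after the start. The first was found in 20.0% of the 45 promoters, against 6.1% of all 32851 promoters and 9.0% of the promoters of genes tested. Only in Eif2b4, Eif2s2 and Eif4a1 did a YY1-like match lie wholly before the start. The E-box was found in 26.7%, against 7.2% and 10.3%, and the ETS-like motif in 33.3%, against 8.9% and 19.3%. Some genes, such as Eif5a, have several promoters that overlap. Counted by gene, the YY1-like motif was in 22.2% of the 36 genes, against 11.0% of genes tested that have a promoter. By gene the E-box was in 27.8%, against 12.2%, and the ETS-like motif in 36.1%, against 22.6%. The median log2 fold change was -0.49 in the 22 tested genes with any of the 3 motifs and -0.51 in the 13 with none, and 15 of 22 and 8 of 13 were called lower. By motif, with against without, the medians were -0.50 and -0.51 for the YY1-like motif, -0.53 and -0.50 for the E-box and -0.46 and -0.51 for the ETS-like motif.

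The stretches before the start are printed for the 3 genes with the lowest p that hold a motif there, and for Eif3f, whose log2 fold change was 0.03 and which holds an E-box too. Eif4e3 has the highest log2 fold change, but it has no entry in the promoter table, and the window of Eif1b lies largely in annotated exons. Capitals mark a motif, sequences are written 5′ to 3′ on the strand of the gene, and bases within an exon of the count table were left out. The stretch of Eif2s2 is chr2:154892936-154893156 on the minus strand, that of Eif4a1 is chr11:69672424-69672673 on the minus strand, that of Eif4g1 is chr16:20672477-20672722 on the plus strand and that of Eif3f is chr7:108934165-108934414 on the plus strand. The YY1-like match begins 231 bases before the start in Eif2s2 and 166 bases before it in Eif4a1. The promoter window of Eif3f holds a YY1-like match too, but not within the stretch printed here. Of the 8 tested genes with a YY1-like match, 5 were called lower. Those not called were Eif3f, Eif1b and Eif4g3, with log2 fold changes of 0.03, 0.10 and -0.06. The E-box begins 189 bases before the start in Eif4a1, 54 in Eif4g1 and 68 in Eif3f. The start used for Eif4g1 lies inside the span of the gene in the count table, chr16:20668313-20692884, and not at its 5′ end. A match is a run of letters and was not tested for binding.
Eif2s2: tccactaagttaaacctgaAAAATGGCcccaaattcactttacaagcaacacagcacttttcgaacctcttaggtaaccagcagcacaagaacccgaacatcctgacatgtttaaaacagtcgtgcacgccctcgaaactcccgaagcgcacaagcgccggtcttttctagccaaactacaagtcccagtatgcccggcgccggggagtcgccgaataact
Eif4a1: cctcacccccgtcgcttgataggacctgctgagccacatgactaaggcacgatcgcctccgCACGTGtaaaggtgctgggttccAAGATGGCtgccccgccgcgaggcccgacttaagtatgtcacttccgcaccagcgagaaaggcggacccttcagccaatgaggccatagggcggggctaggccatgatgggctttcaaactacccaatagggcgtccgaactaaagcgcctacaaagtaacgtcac
Eif4g1: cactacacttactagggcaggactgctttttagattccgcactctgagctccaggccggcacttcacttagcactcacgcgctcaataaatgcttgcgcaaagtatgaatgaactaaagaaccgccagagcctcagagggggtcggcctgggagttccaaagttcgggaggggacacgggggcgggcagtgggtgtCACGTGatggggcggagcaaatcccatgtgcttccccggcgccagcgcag
Eif3f: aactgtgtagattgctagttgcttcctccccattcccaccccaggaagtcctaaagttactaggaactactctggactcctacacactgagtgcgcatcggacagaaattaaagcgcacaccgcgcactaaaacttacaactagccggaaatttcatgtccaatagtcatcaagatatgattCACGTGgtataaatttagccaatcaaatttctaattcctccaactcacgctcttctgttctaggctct

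eIF2 carries the initiator tRNA and consists of an alpha, a beta and a gamma subunit, encoded by Eif2s1, Eif2s2 and Eif2s3x. All 3 genes were lower in every AG636 sample than in any vehicle sample, and 2 of 3 were called. Their median log2 fold change was -0.59. Eif2s2, for the beta subunit, had 1152, 1120.2 and 1040.0 CPM in the vehicle samples and 606, 679.9 and 553 in the AG636 samples. This was the lowest p among the initiation factor genes, with a log2 fold change of -0.85 (SE 0.11, adjusted p = 0.00292). Eif2s3x, for the GTP-binding gamma subunit, had 230.4, 178 and 198 CPM with vehicle and 131, 145 and 126 with AG636. The AG636 samples lay close together and below the vehicle samples, at a log2 fold change of -0.59 (SE 0.13, adjusted p = 0.0139). Eif2s1 encodes the alpha subunit, which the stress kinases phosphorylate, and had 219, 156 and 167 CPM with vehicle and 138, 143 and 106 with AG636. Its vehicle samples were more spread, with vehicle 1 well above the others, and its log2 fold change of -0.48 (SE 0.17) missed the threshold at an adjusted p of 0.0628. The call of Eif2s3x was lost without AG636 1 (adjusted p = 0.0516) and without AG636 3 (adjusted p = 0.0578).

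The 5 subunits of eIF2B, encoded by Eif2b1 to Eif2b5, exchange the nucleotide on eIF2. All 5 log2 fold changes were below 0, from -0.73 to -0.44 with a median of -0.51, and 3 of 5 passed the test. Eif2b5, for the catalytic epsilon subunit, had 68.5, 74.6 and 68.3 CPM with vehicle and 49.5, 50.9 and 47.2 with AG636. Its AG636 samples were all lower and the log2 fold change was -0.52 (SE 0.12, adjusted p = 0.0187). Eif2b3, for the gamma subunit, had 54.9, 48.9 and 39.5 CPM with vehicle and 27.8, 37.3 and 21.7 with AG636. AG636 2 came close to vehicle 3, and the log2 fold change of -0.73 had a standard error of 0.21 (adjusted p = 0.0384). Eif2b4, for the delta subunit, had 89.0, 93.0 and 85.0 CPM with vehicle and 77.7, 57.5 and 59.1 with AG636. Here AG636 1 was the sample nearest to vehicle, and the log2 fold change was -0.46 (SE 0.15, adjusted p = 0.0493). Eif2b1, for the regulatory alpha subunit, had the highest p of the complex, with 78.3, 51.8 and 62.3 CPM with vehicle and 48.2, 53.2 and 33.2 with AG636. Its groups overlapped, since AG636 2 exceeded vehicle 2, and its log2 fold change of -0.51 had a 95% interval of -0.98 to -0.05 (adjusted p = 0.101). These are genes of modest counts whose calls depended on single samples. Eif2b5 lost its call without vehicle 2, AG636 1 or AG636 3, with an adjusted p from 0.0604 to 0.0749. Eif2b3 lost its call without vehicle 1, vehicle 2, AG636 1 or AG636 3, with an adjusted p from 0.098 to 0.13. With library size alone as the scaling Eif2b3 had an adjusted p of 0.0552. Eif2b4 lost its call without vehicle 1, vehicle 2, vehicle 3, AG636 2 or AG636 3, with an adjusted p from 0.0582 to 0.16. Eif2b4 was also not called with library size alone (adjusted p = 0.0874) or on thinned counts (adjusted p = 0.0504). Scaled by library size alone, 1 of 5 was called, and with no filter on low counts 5 of 5. Exons of Eif2b4, with 2575 counts, overlap Snx17 on the opposite strand, which had 1331.

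eIF3 is the scaffold on the small subunit and the largest of the factors. Of its 13 genes tested, 8 were lower with AG636 and 0 higher. The median log2 fold change was -0.45, with genes that were clearly lower and a few with little difference. Eif3g, for an RNA-binding subunit, had 380.3, 317 and 334 CPM with vehicle and 212, 204 and 189 with AG636. The groups were well apart, at a log2 fold change of -0.77 (SE 0.12, adjusted p = 0.0041). Eif3b, for a core subunit that holds Eif3g and Eif3i products in place, had 257, 249.6 and 236 CPM with vehicle and 162, 161 and 143 with AG636. It showed little spread within a group and a log2 fold change of -0.67 (SE 0.11, adjusted p = 0.0053). Eif3d, whose product can bind the cap of certain mRNAs, had 315, 335 and 271 CPM with vehicle and 188, 209 and 187 with AG636. All AG636 samples were again lower, at -0.66 (SE 0.12, adjusted p = 0.00723) for the log2 fold change. The other called genes were Eif3a, Eif3c, Eif3i, Eif3l and Eif3k, with log2 fold changes from -0.56 for Eif3a to -0.35 for Eif3k. Without AG636 3, the adjusted p was 0.0564 for Eif3a and 0.0553 for Eif3c. Eif3i lost its call without vehicle 1, AG636 1 or AG636 3, with an adjusted p from 0.0581 to 0.0858. Eif3l lost its call without vehicle 1, vehicle 2, vehicle 3, AG636 2 or AG636 3, with an adjusted p from 0.0539 to 0.105. Scaled by library size alone, Eif3l had an adjusted p of 0.0541. Eif3k lost its call without vehicle 1, vehicle 2, AG636 1, AG636 2 or AG636 3, with an adjusted p from 0.0684 to 0.125. Scaled by library size alone, Eif3k had an adjusted p of 0.0999. Without vehicle 1 the number of eIF3 genes called was 5, and without AG636 3 it was 3.

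A few eIF3 genes stood at nearly the same level in both groups. Eif3f had 556, 582 and 528 CPM with vehicle and 550.1, 551 and 603 with AG636. The ranges overlapped, with the highest value in AG636 3, the sample in which most other initiation factor genes were lowest. The log2 fold change of Eif3f was 0.03, with a 95% interval of -0.20 to 0.26 (adjusted p = 0.848). Eif3h and Eif3e had log2 fold changes of -0.10 (95% interval -0.33 to 0.13, adjusted p = 0.508) and -0.13 (95% interval -0.42 to 0.17, adjusted p = 0.532). The log2 fold change of Eif3g, -0.77 and the lowest of the eIF3 genes, lay outside all 3 of these intervals. That of Eif3k, -0.35 and called lower, lay inside the interval of Eif3e. The eIF3 genes were not tested against each other. Eif3m and Eif3j1 missed the threshold with larger differences, at -0.41 (adjusted p = 0.0933) and -0.45 (adjusted p = 0.133), and with overlapping groups. Exons of Eif3j1, with 1138 counts, overlap Spg11 on the opposite strand, with 691 counts.

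The eIF4 genes encode the machinery that binds the cap and unwinds the mRNA. Of 11 genes tested, 7 were lower with AG636 and 0 higher, and the median log2 fold change was -0.51. All 3 eIF4A helicase genes were called, together with 2 of 3 eIF4G scaffold genes, 1 of 3 eIF4E cap-binding genes and 1 of the 2 helicase cofactors Eif4b and Eif4h. Eif4a1, for the main helicase, had 688, 577 and 678 CPM with vehicle and 385, 359 and 369 with AG636. The AG636 samples lay within a narrow range far below vehicle, and the log2 fold change was -0.80 (SE 0.11, adjusted p = 0.0032). Eif4a2, its close relative, had 166, 169.8 and 206 CPM with vehicle and 100.5, 114 and 127 with AG636. It too was lower in every AG636 sample, at -0.66 (SE 0.14, adjusted p = 0.0119) on the log2 scale. Exons of Eif4a2, with 4916 counts, overlap Rfc4 on the opposite strand, with 1500 counts. The third helicase gene, Eif4a3, whose product is also a core part of the exon junction complex, had a log2 fold change of -0.51 (SE 0.11, adjusted p = 0.0143). Eif4a3 lost its call without vehicle 2, AG636 1 or AG636 3, with an adjusted p from 0.0506 to 0.0595.

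Among the scaffolds, Eif4g1 had 671, 617 and 610.4 CPM with vehicle and 407, 391 and 381 with AG636. Its groups were far apart for the spread within them, and the log2 fold change was -0.69 (SE 0.10, adjusted p = 0.0040). Eif4g2, for a relative that lacks the eIF4E-binding part, had 1527, 1452 and 1415 CPM with vehicle and 1142, 1221 and 1004 with AG636. Its difference was smaller, at -0.38 (SE 0.11, adjusted p = 0.0301) on the log2 scale. Eif4g3, a close relative of Eif4g1, had 95.0, 92.3 and 113 CPM with vehicle and 104, 97.1 and 87.8 with AG636. It had the highest p of the family: the groups overlapped and the log2 fold change of -0.06 had a 95% interval of -0.35 to 0.24 (adjusted p = 0.788). Eif4g2 lost its call without vehicle 1, vehicle 2, AG636 1 or AG636 3, with an adjusted p from 0.0653 to 0.115. Its adjusted p was 0.0609 when scaled by library size alone.

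Of the cap-binding proteins, Eif4e had 283, 286 and 253 CPM with vehicle and 192, 196 and 179 with AG636. All AG636 samples were lower and the log2 fold change was -0.53 (SE 0.11, adjusted p = 0.0115). Eif4e2, for a cap-binding protein known for repressing translation, had 159, 142 and 122 CPM with vehicle and 101, 119.6 and 87.8 with AG636. The ranges did not overlap, with AG636 2 just below vehicle 3, and the log2 fold change of -0.46 (SE 0.15) had an adjusted p of 0.0557. Eif4e3 had the highest log2 fold change of all initiation factor genes, 0.34 with a 95% interval of -0.09 to 0.78 (adjusted p = 0.232), and its groups overlapped. Of the cofactors, Eif4b had a log2 fold change of -0.51 (SE 0.12, adjusted p = 0.0158) and Eif4h one of -0.17 (95% interval -0.40 to 0.06, adjusted p = 0.269). Without AG636 3, Eif4e had an adjusted p of 0.0508. Eif4b lost its call without vehicle 1, AG636 1 or AG636 3, with an adjusted p from 0.0508 to 0.0597. Without AG636 1 the number of eIF4 genes called was 4, and without AG636 3 it was 3.

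The factors of start codon selection are eIF1 and eIF1A, and 3 of their 4 genes were lower with AG636. Eif1a, 1 of the genes for eIF1A, had 108, 104 and 124 CPM with vehicle and 63.9, 79.8 and 63.2 with AG636. AG636 2 was the highest of its group and still below every vehicle sample, and the log2 fold change was -0.70 (SE 0.14, adjusted p = 0.0106). Eif1ax, the X-linked gene for eIF1A, had 252, 227 and 255 CPM with vehicle and 189.9, 188 and 183 with AG636. The AG636 samples differed from each other by a few CPM, and the log2 fold change was -0.38 (SE 0.11, adjusted p = 0.0316). Eif1, for the factor that guards against false start codons, had 644, 566 and 677 CPM with vehicle and 469.6, 415 and 455 with AG636. It was lower in all AG636 samples, at -0.49 (SE 0.11, adjusted p = 0.0155). Its near copy Eif1b, on chromosome 9 from 120492232 to 120495330 (GRCm38), had 210.2, 241 and 222 CPM with vehicle and 246, 222 and 253 with AG636. Those groups overlapped, and the log2 fold change was 0.10 with a 95% interval of -0.15 to 0.35 (adjusted p = 0.559). Without AG636 3, Eif1 had an adjusted p of 0.0534. Eif1ax lost its call without vehicle 1, vehicle 3, AG636 1, AG636 2 or AG636 3, with an adjusted p from 0.0548 to 0.102. With library size alone as the scaling its adjusted p was 0.0724.

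The factors of subunit joining and of the first steps after it were lower throughout: all 4 genes tested passed, and the median log2 fold change was -0.57. Eif5a, for the hypusine-bearing factor that acts mainly in elongation, had 2357, 2171 and 2058 CPM with vehicle and 1582, 1626 and 1319 with AG636. The lowest value was in AG636 3, and the log2 fold change was -0.54 (SE 0.11, adjusted p = 0.0115). Eif6, for the factor that keeps large subunits from joining too early, had 139.8, 154 and 136 CPM with vehicle and 92.0, 105 and 87.4 with AG636. Every AG636 sample was lower, at -0.60 (SE 0.12, adjusted p = 0.0117). Eif5b, for the GTPase of subunit joining, had 718, 704 and 627 CPM with vehicle and 438, 523 and 394 with AG636. Again AG636 3 was lowest and AG636 2 highest of the treated samples, and the log2 fold change was -0.60 (SE 0.13, adjusted p = 0.0126). Eif5, for the protein that makes eIF2 hydrolyse its GTP, had 587, 534 and 549 CPM with vehicle and 418, 418 and 346 with AG636. Its groups did not overlap, at -0.50 (SE 0.12, adjusted p = 0.0163). Without AG636 3, the adjusted p was 0.0519 for Eif6, 0.0534 for Eif5b and 0.0655 for Eif5.

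The other 3 genes have initiation factor names but stand outside the canonical complexes, and 1 of them was lower. Eif1ad, a relative of the eIF1A genes, had 113, 95.1 and 108 CPM with vehicle and 79.6, 75.9 and 61.9 with AG636. Its groups did not overlap and the log2 fold change was -0.54 (SE 0.14, adjusted p = 0.0245). Eif2a, for a protein that can deliver initiator tRNA independently of eIF2, had 83.6, 65.3 and 70.8 CPM with vehicle and 56.1, 73.2 and 61.3 with AG636. AG636 2 lay among the vehicle samples, and the log2 fold change of -0.20 had a 95% interval of -0.54 to 0.14 (adjusted p = 0.361). Eif2d, for a protein of ribosome recycling, had 57.1, 46.2 and 48.7 CPM with vehicle and 55.4, 43.5 and 47.2 with AG636. These values overlapped nearly fully, at a log2 fold change of -0.06 (95% interval -0.40 to 0.29, adjusted p = 0.819). Exons of both overlap genes with more counts on the opposite strand, Serp1 with 7380 counts against 2251 for Eif2a and Rassf5 with 4141 against 1628 for Eif2d. Use of strand in the counting is not stated in the sources used here, so that reads of such pairs cannot be told apart. The call of Eif1ad was lost without vehicle 1 (adjusted p = 0.0608) and without AG636 3 (adjusted p = 0.0932).

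Related genes can be compared within a sample, which takes out library scaling. Of 8 pairs, 6 had enough counts for both genes. The log2 ratio of Eif1 to Eif1b was 1.61, 1.23 and 1.60 in the vehicle samples and 0.93, 0.90 and 0.85 in the AG636 samples. All AG636 ratios were lower, and the group means differed by -0.59. For Eif4g1 to Eif4g3 the log2 ratio was 2.82, 2.74 and 2.42 with vehicle and 1.96, 2.004 and 2.11 with AG636, a difference of -0.63. The ratio thus moved toward Eif4g3 in each treated sample. The ratios of Eif4g1 to Eif4g2 and of Eif1a to Eif1ax differed by -0.30 and -0.32, without overlap of the groups. In contrast, the groups overlapped for Eif4a1 to Eif4a2, with a difference of -0.14, and for Eif4e to Eif4e2, with a difference of -0.07. The exact permutation test (two-sided, 3 against 3) gave p = 0.1 for each of the 4 pairs without overlap, which is the smallest p it can give, 0.4 for Eif4a1 to Eif4a2 and 0.6 for Eif4e to Eif4e2. Adjusted over the 6 pairs, these permutation p were 0.15, 0.48 and 0.6. No pair can pass 0.05 in this design. How the counting treated reads that map to several places is not stated, and Eif1 and Eif1b, Eif1a and Eif1ax, and Eif4a1 and Eif4a2 have similar sequences, so their split is uncertain. The 10 genes annotated as processed pseudogenes of initiation factors had 0 to 30 counts each.

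**Figure D4:**
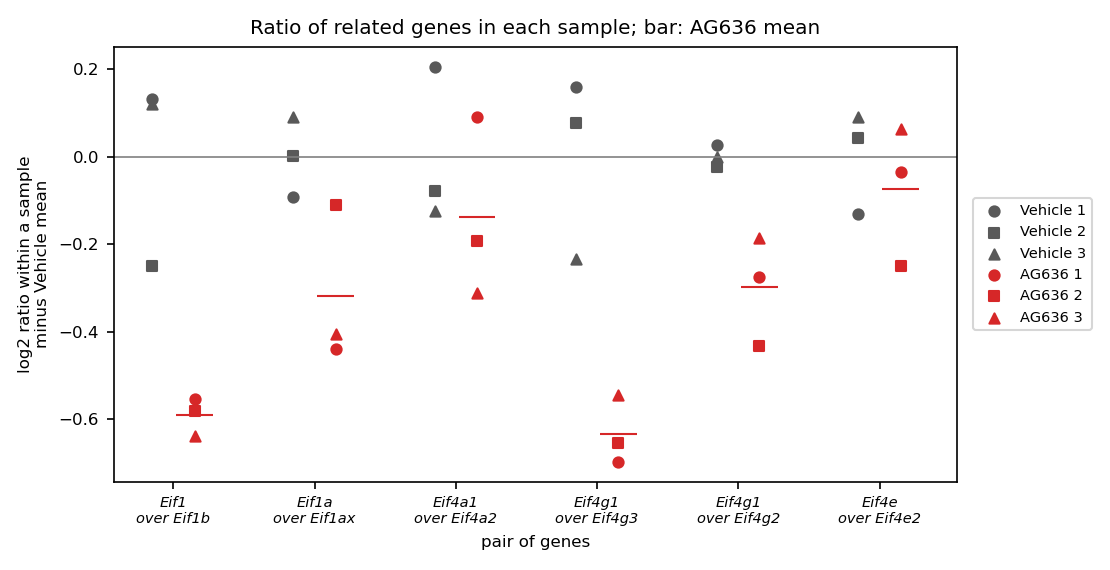
Log2 ratio of 2 related genes in each sample minus the mean of the vehicle samples, with vehicle in grey, AG636 in red, replicates as circles, squares and triangles, and a red bar at the AG636 mean. The largest shifts are -0.59 for Eif1 over Eif1b and -0.63 for Eif4g1 over Eif4g3, and the groups overlap for Eif4a1 over Eif4a2 and Eif4e over Eif4e2.

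Initiation is also set by proteins that are not themselves initiation factors, and 36 of their genes were taken as a list. Of the 34 tested, 10 were lower and 1 was higher with AG636, beside 11.0% and 10.3% of all genes tested. The median log2 fold change of the 34 was -0.23. The number called was 7 without vehicle 1 or without vehicle 2, and 6 without AG636 1 or without AG636 3. The untested genes were Eif4ebp3 with 0 counts and Mcts2 with 35. The gene called higher was Pdcd4, for an inhibitor of eIF4A. Pdcd4 had 89.3, 76.9 and 72.3 CPM with vehicle and 111, 129 and 118 with AG636, and the log2 fold change was 0.58 (SE 0.13, adjusted p = 0.0143). Every AG636 sample exceeded every vehicle sample, opposite to Eif4a1 and Eif4a2. Leaving out vehicle 2 gave Pdcd4 an adjusted p of 0.0575.

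Several of the lower genes act on the mRNA. Pabpc4, a poly(A)-binding protein, had 1246, 844 and 666 CPM with vehicle and 338, 429 and 254 with AG636. It was the gene of this list that fell the most, at a log2 fold change of -1.43 (SE 0.24, adjusted p = 0.00543), while its relative Pabpc1 had -0.29 (adjusted p = 0.0768). Larp1, which binds mRNAs with a 5′ terminal oligopyrimidine tract, had 607, 459.8 and 449.9 CPM with vehicle and 289.7, 359.6 and 255 with AG636. Its vehicle 1 was high, yet the groups did not overlap, and the log2 fold change was -0.75 (SE 0.16, adjusted p = 0.013). The helicases of scanning, Dhx29 and Ddx3x, were both lower. Dhx29 had 85.2, 79.8 and 72.5 CPM with vehicle and 48.6, 37.9 and 34.5 with AG636, at -0.97 (SE 0.16, adjusted p = 0.00501) on the log2 scale. Ddx3x had 776, 753 and 681 CPM with vehicle and 565, 586 and 515 with AG636, at -0.41 (SE 0.11, adjusted p = 0.0254). Both lay below vehicle in each AG636 sample. Without AG636 3, Larp1 had an adjusted p of 0.0538. Ddx3x lost its call without vehicle 1, vehicle 2, AG636 1 or AG636 3, with an adjusted p from 0.0679 to 0.099.

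Other lower genes act around eIF2, eIF5 and eIF4E. Gcn1, a partner of the eIF2 kinase encoded by Eif2ak4, had 142, 139.7 and 116 CPM with vehicle and 88.1, 83.3 and 85.3 with AG636, at a log2 fold change of -0.63 (SE 0.13, adjusted p = 0.00986). Bzw2, a mimic of eIF5, had 363, 301 and 319 CPM with vehicle and 192, 209 and 191 with AG636, at -0.73 (SE 0.12, adjusted p = 0.00465). In both genes the groups were widely apart. Eif4ebp1, which holds eIF4E away from eIF4G, had 111, 95.5 and 90.9 CPM with vehicle and 64.4, 76.1 and 60.4 with AG636, at -0.57 (SE 0.14, adjusted p = 0.0213). Dhps, the first enzyme of hypusine formation on eIF5A, had 29.6, 26.6 and 23.8 CPM with vehicle and 14.9, 10.9 and 19.4 with AG636, at -0.82 (SE 0.23, adjusted p = 0.03). Neither gene overlapped between the groups. Denr, a factor of recycling and reinitiation, had 251, 239 and 258 CPM with vehicle and 183, 188 and 175 with AG636, at -0.46 (SE 0.11, adjusted p = 0.0166). Abce1, the ATPase that splits ribosomes, had 149, 90.9 and 127 CPM with vehicle and 80.7, 89.5 and 70.4 with AG636, at -0.61 (SE 0.18, adjusted p = 0.0413). For Abce1 the margin was small, with vehicle 2 just above AG636 2. Eif4ebp1 lost its call without vehicle 1, vehicle 2, AG636 1 or AG636 3, with an adjusted p from 0.0511 to 0.0839. Dhps lost its call without vehicle 1, vehicle 2, AG636 1 or AG636 2, with an adjusted p from 0.0583 to 0.0835. The call of Denr was lost without AG636 1 (adjusted p = 0.0554) and without AG636 3 (adjusted p = 0.0665). Abce1 lost its call without vehicle 1, vehicle 3, AG636 1 or AG636 3, with an adjusted p from 0.0693 to 0.138. It was also not called by limma-voom (adjusted p = 0.054) or with library size alone (adjusted p = 0.0643).

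Of the 4 eIF2 kinase genes, 0 were called, beside 11.0% of all genes tested called lower and 10.3% higher. Among so few genes, a count of 0 is near these shares. The log2 fold changes of Eif2ak1, Eif2ak2, Eif2ak3 and Eif2ak4 were -0.08, -0.38, 0.02 and 0.09, and 0 of 4 had an unadjusted p under 0.05 in edgeR or an adjusted p under 0.05 in DESeq2 or limma-voom. Their 95% intervals were -0.45 to 0.29, -0.82 to 0.06, -0.74 to 0.78 and -0.25 to 0.42 in the same order. Of the 3 eIF2 phosphatase genes and the 2 eIF4E kinase genes, 0 were called by edgeR, DESeq2 or limma-voom. At an unadjusted p under 0.05, 1 of each group was higher: Ppp1r15a, the stress-induced regulatory subunit of the phosphatase, at 0.52 (adjusted p = 0.103), and Mknk1, at 0.44 (adjusted p = 0.0867). These values missed the threshold, and differences within the intervals remain possible.

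**Figure D5:**
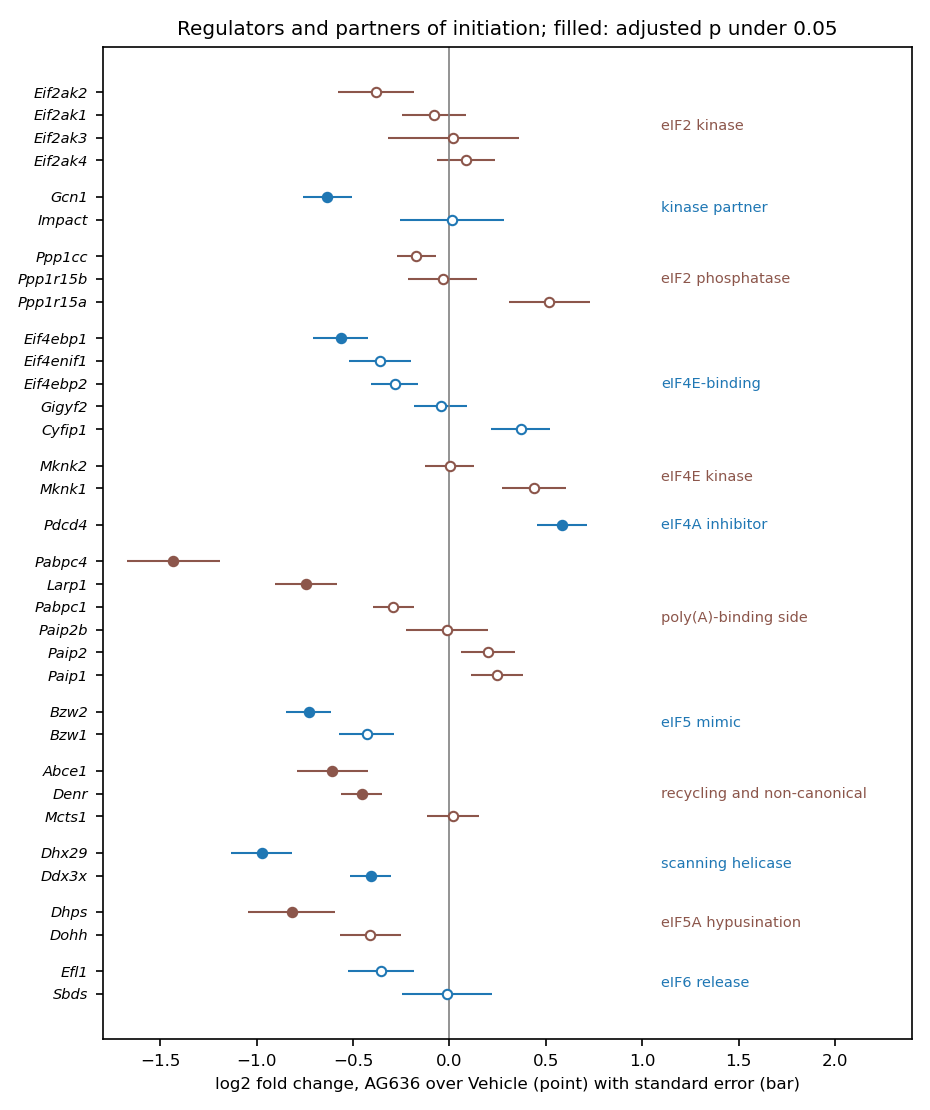
Log2 fold change of AG636 over vehicle with bars of 1 standard error for the 34 regulators and partners tested, grouped by role, with filled points at an adjusted p under 0.05. Pdcd4 is the 1 filled point right of 0 and Pabpc4, at -1.43, lies furthest left.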

How the data were processed

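RNA of sorted I1DN leukemia cells was sequenced in 3 Vehicle and 3 AG636 samples, grouped by the submitters' labels. The authors deposited raw counts of reads per gene, without normalization. Per the labels' processing notes, the tools were FastQC, cutadapt 1.9.1, HISAT2 2.0.4 and featureCounts of Subread 1.5.0-p3, on mm10 (GRCm38). The annotation release, use of strand and treatment of reads mapping to several places are not given in the sources used here. No per-sample column of the table was set aside.

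Symbols came from the GENCODE mouse annotation (vM21), which named 54723 of 54838 identifiers. Gcn1 was matched through its older symbol in RefSeq. The initiation factor genes and all lists were chosen with earlier results of these data known. The main analysis used edgeR 4.0.16 under R 4.3.3 (filterByExpr at min.count 10 and min.total.count 15, TMM, quasi-likelihood test, Benjamini-Hochberg adjustment over all genes, calls at an adjusted p under 0.05). The standard error is the log2 fold change divided by the square root of F, without its sign, and 95% intervals use the t distribution with the degrees of freedom of that test. Ratios of related genes used log2 CPM with a prior count of 2. Per-sample CPM are given, in each complex, for the 3 tested genes with the lowest p, the gene with the highest p and both genes of most related pairs, and for at most 12 regulators with the lowest p among those called. The promoters printed hold a motif and have the lowest p. For contrast the rule named the gene with the highest log2 fold change, and Eif3f took its place. Protein sequences were not used here, and 2 further marker genes are not reported here.

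Floors of 3 counts cover counting error only, since no molecular identifiers are described. Replicates are numbered samples of different mice. Within groups the chi-square statistic over genes was 6.67 to 15.6 per degree of freedom, so each sample was counted once. The median standard error over genes was 0.195. The test was checked on simulated data. Alternatives were DESeq2 1.42.0, limma-voom (limma 3.58.1), median-of-ratios factors, library size alone, TMM factors leaving out Eif, Rpl and Rps genes, a replicate block, no filter, 10 or more counts per sample, thinned counts, leaving out each sample, an adjusted p under 0.01 and a fold of at least 1.5. For the ratios they were prior counts of 0.5 and 5, unscaled counts, leaving out each sample and differences within same-numbered pairs.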

Additional observations from a re-analysis of the deposited data

How the results depend on the processing

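The median log2 fold change of the initiation factor genes stayed below 0, between -0.55 and -0.41, in all 15 refits, and 0 of these genes were higher in any of them. Of the 28 genes called lower, 9 kept the call in all 15: Eif1a, Eif2s2, Eif3b, Eif3d, Eif3g, Eif4a1, Eif4a2, Eif4g1 and Eif5a. An adjusted p under 0.01 left 6 of the 28, with 1 gene of eIF2, 0 of eIF2B, 3 of eIF3 and 2 of eIF4, beside 4 regulators and 556 genes overall. A fold of at least 1.5 left 12, with 1 of eIF2B, 3 of eIF3, 3 of eIF4 and 7 regulators. For eIF2B, library size alone gave 1 and no filter gave 5. Leaving out 1 sample gave 9 to 27 initiation factor genes, 1 to 2 of eIF2, 0 to 3 of eIF2B, 3 to 7 of eIF3, 3 to 8 of eIF4, 6 to 12 regulators and 851 to 2311 genes overall. The fewest initiation factor genes came without AG636 3, where 19 calls were lost. These fits also have fewer samples, and the part of that in such losses was not tested. Direction reversed only for values that were not called. With library size alone Eif2d was at 0.034 and Eif4g3 at 0.031. Leaving out 1 sample gave -0.16 to 0.023 for Eif2d (above 0 without vehicle 1 or AG636 2), -0.027 to 0.057 for Eif3f (below 0 without vehicle 3 or AG636 3), -0.12 to 0.018 for Eif4g3 (above 0 without vehicle 3 or AG636 3) and -0.14 to 0.015 for the log2 ratio of Eif4e to Eif4e2 (above 0 without AG636 2). The cause was not tested. Same-numbered samples deviated from their group means with correlations of -0.057, -0.178 and 0.224, and not every sample correlated best with its own number. With 3 samples per group, such correlations cannot decide whether the numbers pair the samples. With a replicate block, 27 initiation factor genes were lower, 3 calls were lost and 2 gained, and 1960 genes were called overall. The calls lost were Eif1ax (adjusted p = 0.0552), Eif2b4 (adjusted p = 0.0612) and Eif3k (adjusted p = 0.065), and among the regulators Abce1 (adjusted p = 0.0662). With 3 samples per group, intervals were wide for several genes, such as -1.20 to -0.25 for Eif2b3. The exact permutation test used here, of 3 against 3, cannot go below 0.1.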
